A study of Mus musculus with 4 samples.

Results

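The forkhead (Fox) transcription factor genes were examined in ATAC-seq peak lists of murine glioblastomas grown in Esm1 WT and Esm1 KO mice. Members were the protein-coding genes of the GENCODE M21 annotation whose symbol is Fox, 1 letter from a to s and a number. There were 44 such genes of 21951, in 19 classes from FOXA to FOXS. ATAC-seq uses a transposase that cuts and tags open chromatin, so that a peak of reads marks an accessible stretch of DNA. The tumors came from mG7080, a mouse glioblastoma line, injected into the brains of adult female C57BL/6 mice with (WT) or without (KO) Esm1, the gene for the secreted proteoglycan Endocan. There were 2 tumors per group, each with 1 peak list. The knockout lies in the host animals, and the injected line, which is the same in both groups, carries its own Esm1. It is a single line. The labels speak of resected tumor tissue and the study's methods of freshly isolated tumor cells, and the share of host cells in each sample was not measured. In such bulk samples fewer cells of a type and less accessible chromatin per cell cannot be told apart.

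Forkhead proteins bind DNA through a shared winged-helix domain, with most members recognising variants of TGTTTAC or TGTTTGC. The FOXA proteins can bind nucleosomal DNA and help to open chromatin in endoderm and in the ventral midline of the neural tube. FOXO proteins are held out of the nucleus when insulin and growth factor receptors activate AKT, and FOXM1 drives genes of the late cell cycle. FOXJ1 switches on motile cilia in ependymal cells, and FOXC and FOXF proteins act in mesenchyme and blood vessel walls.

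The lists held 63000, 100088, 82975 and 85418 peaks in Esm1 WT 1, Esm1 WT 2, Esm1 KO 1 and Esm1 KO 2, and values below are given in this order. A peak's height is the number of reads piled up at its summit, recovered from the deposited fold and p-value. Genome background, the evenly spread read density of a library, was 4.41, 6.85, 6.03 and 6.71 reads, so Esm1 WT 1 was the shallowest library, and its missing peaks are less firm than those of the others. The lowest peak called had 13, 16, 15 and 16 reads, and a gene with no called peak has no height. Open and closed below stand for a promoter with and without a called peak, and a closed promoter may still hold reads too few to call. A promoter peak was one that touched the 1000 bp on either side of any annotated transcription start, and 63.9%, 66.2%, 65.1% and 66.9% of all protein-coding genes had one. The Esm1 promoter had 0 peaks in every library, so accessibility there gave no check of the genotype labels.

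A promoter peak was called at 24, 27, 28 and 32 of the 44 forkhead genes. In all 4 libraries 24 genes (54.5%) had one, against 62.3% of all genes, and 12 (27.3%) had none in any library, against 31.0%. The other 8 were split between the libraries. Foxc2, Foxe3, Foxi1 and Foxs1 had a promoter peak in Esm1 KO 2 alone, which is 9.09% of the family against 1.64% of all genes. Foxd2, Foxf2 and Foxi3 had one in every library but Esm1 WT 1 (6.82% against 1.32%). Foxh1 had one in both KO and neither WT library, a pattern of 0.282% of all genes. No member had one in both WT and neither KO library, which 0.146% of all genes did. The mean number of members with a promoter peak was 25.5 ± 2.12 in WT and 30 ± 2.83 in KO (SD, n = 2 per group). The difference of 4.5 genes was not significant by the two-sided exact permutation test over libraries (p = 0.333, the smallest that 2 against 2 allows), and without Esm1 KO 2 it was 2.5. Over all genes the same difference was 216 (exact permutation p = 0.667).

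Foxo3 had the tallest promoter peak of the family in 3 libraries, and Foxk2 in Esm1 KO 2. All of FOXO, FOXK and FOXP, and FOXJ and FOXM, had a promoter peak in every library. Among the FOXO genes, the effectors of the insulin and AKT pathway, Foxo3 had heights of 114, 140, 124 and 130 reads, between percentile 90.8 and 95.6 of the promoters open in the same library. Foxo6, the FOXO gene best known from neurons, had 91, 112, 106 and 116. Foxo1 had 63, 89, 68 and 93, and Foxo4 had 44, 60, 53 and 76. The order Foxo3, Foxo6, Foxo1, Foxo4 held in all 4 libraries.

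Foxk2, one of a pair of factors that repress autophagy genes, reached 96, 113, 99 and 149 reads, while Foxk1 had 70, 75, 66 and 92. Relative to genome background the means for Foxk2 were 19.1 ± 3.71 in WT and 19.3 ± 4.08 in KO (SD, n = 2 per group). The mitotic regulator Foxm1 stood lower, at 58, 72, 53 and 68 reads, and between percentile 25.8 and 41.2. Foxn2 and Foxn3, the latter linked to checkpoint control, had 79, 105, 103 and 116 and 71, 90, 75 and 95 reads. The relatives Foxn1, the master gene of thymic epithelium, and Foxn4, a gene of retinal and spinal progenitors, had no promoter peak. Foxj2 had 65, 99, 71 and 74 reads and Foxj3 had 74, 106, 100 and 102.

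**Figure D1:**
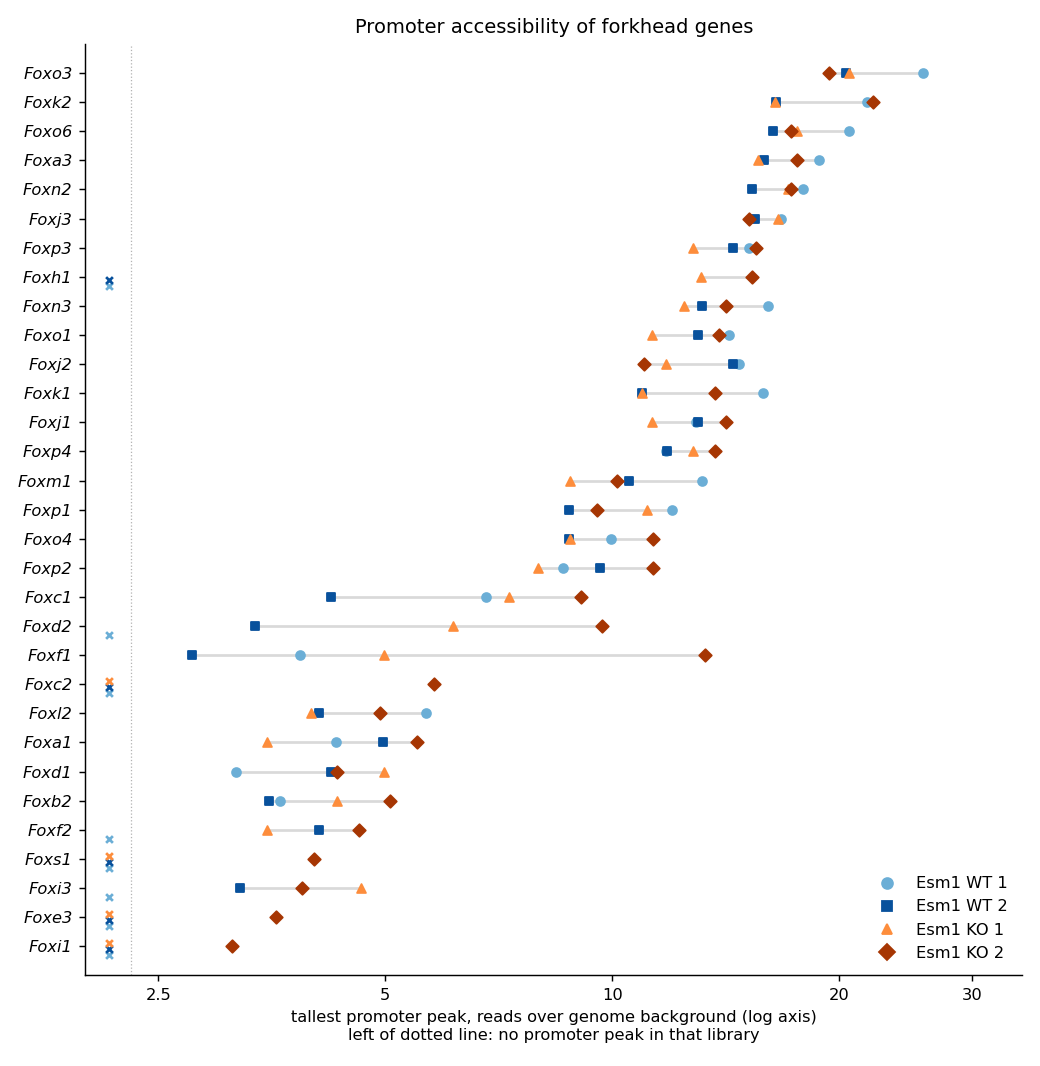
Height of the tallest promoter peak of each forkhead gene in multiples of the genome background of its library (horizontal, log axis), for 31 genes with a promoter peak in at least 1 library. Each point is 1 tumor, grey lines join the lowest and highest, and crosses left of the dotted line mark libraries without a promoter peak. Foxo3 and Foxk2 lie at the top, and Foxf1 spreads from 19 reads in Esm1 WT 2 to 89 in Esm1 KO 2.

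Members known for roles in the brain differed in height. Foxj1 (chromosome 11, 116330704 to 116335399, minus strand), the ciliary factor, had 57, 89, 68 and 95 reads. Foxp2, known for its part in speech and striatal circuits, had 38, 66, 48 and 76 reads, less in each library than Foxj1. Its relatives Foxp1 and Foxp4 had 53, 60, 67 and 64 and 52, 81, 77 and 92. Foxb1, a gene of the caudal hypothalamus, had no promoter peak, and its nearest peak in any library lay 61.2 kb past the promoter window.

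Several long members have more than 1 annotated start. Foxp1, a relative of Foxp2 that also acts in lymphocytes and heart, had 22 annotated starts over 592.9 kb, of which 12 were covered by a peak in all 4 libraries and 6 in none. For Foxp2 the numbers were 8 and 4 of 16 starts over 475.3 kb, and for Foxn3 they were 6 and 8 of 14 over 272.3 kb. Foxj3 had 8 of 10 starts covered in all 4 libraries and Foxp4 had 6 of 8. At Foxm1 just 1 of 7 was. Neighbouring starts often shared a peak. Promoter peaks numbered 1 per library at Foxj3, 2 at Foxp4, and 4, 7, 6 and 8 at Foxp1. A peak over a start does not show that the start is used.

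Some promoter peaks lay closer to a neighbouring gene. The peak credited to Foxp3, the factor that defines regulatory T cells, had 67, 99, 77 and 104 reads, but its summits were 119 to 179 bp from the start of Ppp1r3f and 758 to 818 bp from that of Foxp3. Of the 7 Foxp3 starts 5 were uncovered in every library, and a separate small peak of 23 reads lay 941 bp from another Foxp3 start in Esm1 KO 2. T cell markers were open at 3, 4, 3 and 3 of 14 promoters. Ikzf2 and Lck were open in all 4 libraries and Cd28 in all but Esm1 WT 1. Cd4 was open in Esm1 WT 2 alone and Zap70 in Esm1 WT 1 alone. The other 9 were closed in every library, among them Cd3d, Cd3e, Cd3g, Il2ra and Ctla4. The tall peak at Foxa3, a liver and gut factor (83, 109, 94 and 118 reads), had its summits 29 to 93 bp from the start of Sympk and 746 to 810 bp from that of Foxa3. Foxm1 and Rhno1 start 56 bp apart and Foxj3 and Frg2f1 start 132 bp apart, so that 1 peak covers both. The 100 bp around the highest summits at Foxp3 and Foxa3, from the GRCm38 assembly, are shown because they mark sequence next to the neighbours' starts:
Foxp3, chrX:7574367-7574466, plus strand: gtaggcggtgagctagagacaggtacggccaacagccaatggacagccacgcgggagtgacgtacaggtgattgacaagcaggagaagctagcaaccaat
Foxa3, chr7:19024234-19024333, plus strand: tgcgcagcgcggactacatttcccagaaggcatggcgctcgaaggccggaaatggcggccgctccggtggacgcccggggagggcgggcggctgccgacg

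A second set of promoters was open in all 4 libraries but low. The endodermal factor Foxa1 had 19, 34, 21 and 37 reads, the ovarian factor Foxl2 25, 28, 24 and 33, Foxb2 16, 24, 26 and 34 and the renal stromal gene Foxd1 14, 29, 30 and 29. In each library these heights were within the lowest 10.1% of open promoters, and the background around the peaks was close to the genome background (1.0 to 1.77 times). Foxc1, a regulator of mesenchyme, meninges and vessels (chromosome 13, 31806633 to 31812476), had 30, 29, 44 and 61 reads. In reads both KO values were above both WT values. As fold over the background around the peak the values were 3.85, 2.57, 3.75 and 3.68, highest in Esm1 WT 1.

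Foxf1, a mesodermal gene of the gut and lung mesenchyme (ENSMUSG00000042812.5, chromosome 8, 121084386 to 121088144, plus strand), had 17 and 19 reads in the WT libraries, 30 in Esm1 KO 1 and 89 in Esm1 KO 2. The KO values lay above the WT values, and Esm1 KO 2 was far from the other 3. Its peak widened with height, from 292 and 275 bp in WT to 1282 and 1578 bp in KO. Local background is the density the peak caller expected around a peak. It was 1.0, 1.0, 1.23 and 2.88 times the genome background, so it was also highest in Esm1 KO 2. Fold over local background, which takes that out, was 3.32, 2.55, 3.68 and 4.43. The 2 WT peaks were not called once a −log10 q of 5 was required.

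Foxd2, the paralog of Foxd1, had no peak in Esm1 WT 1 and 23, 37 and 65 reads in the others, again with the most in Esm1 KO 2. Foxf2, a gene of brain pericytes, had no peak in Esm1 WT 1 and 28, 21 and 31 reads in the others. For Foxi3, a gene of ectodermal placodes, the heights outside Esm1 WT 1 were 22, 28 and 26. Among the called peaks, Foxf2 overlapped between WT and KO, while Foxi3 and Foxd2 were higher in both KO libraries than in Esm1 WT 2. The 4 genes with a promoter peak in Esm1 KO 2 alone were low there. Foxc2, which acts in lymphatic vessels and mesenchyme, had 2 peaks of 37 and 39 reads, Foxs1 had 27, the lens gene Foxe3 had 24 and Foxi1, a gene of kidney intercalated cells and the inner ear, had 21, against a lowest called height of 16. Foxc2 was flanked by a region open in all 4 libraries, whose peaks of 32, 47 and 51 reads in the other 3 lay 1.41 to 1.5 kb past its promoter window. The Foxi1 peak was lost at the stricter −log10 q of 5, and the other 3 were kept. Esm1 KO 2 did not have the most open markers of vessel cells, with 4, 8, 5 and 7 of 15 endothelial and 6, 10, 6 and 7 of 15 mural and meningeal promoters open. Of these Erg was open in Esm1 KO 2 alone, Flt1 and Abcc9 in Esm1 WT 2 and Esm1 KO 2, and Vwf in all but Esm1 WT 1. Cldn5, Sox17, Cspg4 and Pdgfrb were open in Esm1 WT 2 alone. Acta2 was open in Esm1 WT 2 and Esm1 KO 1, and Tagln in all but Esm1 KO 1. Pecam1, Cdh5, Col1a2 and Dcn were closed in all 4. The part of such cells in these results was not tested. The 100 bp around the highest summit are given for 3 of the promoters that set the libraries apart and whose summits lie outside exons:
Foxf1, chr8:121084137-121084236, plus strand: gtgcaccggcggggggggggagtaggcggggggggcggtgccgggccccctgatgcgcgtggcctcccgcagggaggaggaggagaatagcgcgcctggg
Foxd2, chr4:114909089-114909188, plus strand: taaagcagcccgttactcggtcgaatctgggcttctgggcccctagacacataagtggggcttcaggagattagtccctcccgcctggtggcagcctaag
Foxs1, chr2:152933746-152933845, plus strand: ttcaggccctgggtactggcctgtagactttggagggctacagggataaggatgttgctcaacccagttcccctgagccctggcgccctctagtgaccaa

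The KO-only call of Foxh1, the SMAD partner in Nodal signalling (chromosome 15, 76668225 to 76669948, minus strand), rested on where a neighbour's peak ended. The peak had 79 and 103 reads in the KO libraries, and its summits lay 29 bp from the start of Ppp1r16a and 1638 to 1728 bp from a Foxh1 start. In the WT libraries the same site held peaks of 83 and 105 reads that stopped 335 and 120 bp short of the Foxh1 window. With a promoter of 500 bp or with the summit required inside the window, no library had a Foxh1 promoter peak. With 2500 bp all 4 did.

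The 12 members without a promoter peak were Foxa2, Foxb1, Foxd3, Foxd4, Foxe1, Foxi2, Foxl1, Foxn1, Foxn4, Foxq1, Foxr1 and Foxr2. They include the floor plate factor Foxa2, the neural crest factor Foxd3 and Foxr2, a gene that is silent in most tissues and switched on in a subset of human brain tumors. Foxq1 was a near miss, since every library had a peak of 26 to 38 reads 694 to 806 bp past its promoter window. Foxa2 had such a peak in Esm1 KO 2 alone (23 reads, 602 bp past the window) and Foxd3 in Esm1 WT 1 alone (20 reads, 155 bp past). For Foxd4, Foxe1, Foxn1, Foxn4, Foxr1 and Foxr2, and for Foxb1 as given above, the nearest peak lay more than 10 kb past the window in every library.

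The closed members often had CpG-rich starts. In the 1000 bp around the outermost start, the observed over expected number of CpG dinucleotides had a median of 0.599 in the 12 closed members, against 0.167 in the 6788 closed genes measured. A ratio of at least 0.6 was found in 6 of the 12, against 3.12% of closed genes. They were Foxd3 (0.821), Foxl1 (0.769), Foxb1 (0.718), Foxe1 (0.688), Foxn4 (0.639) and Foxr1 (0.628). In members open in all 4 libraries the median was 0.831, against 0.718 in all such genes, and in the 8 members open in some libraries it was 0.783 against 0.343. Foxc2, open in Esm1 KO 2 alone, had the highest ratio of those 8 (0.995), while Foxi1 (0.292), Foxh1 (0.293) and Foxs1 (0.394) were CpG-poor.

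**Figure D2:**
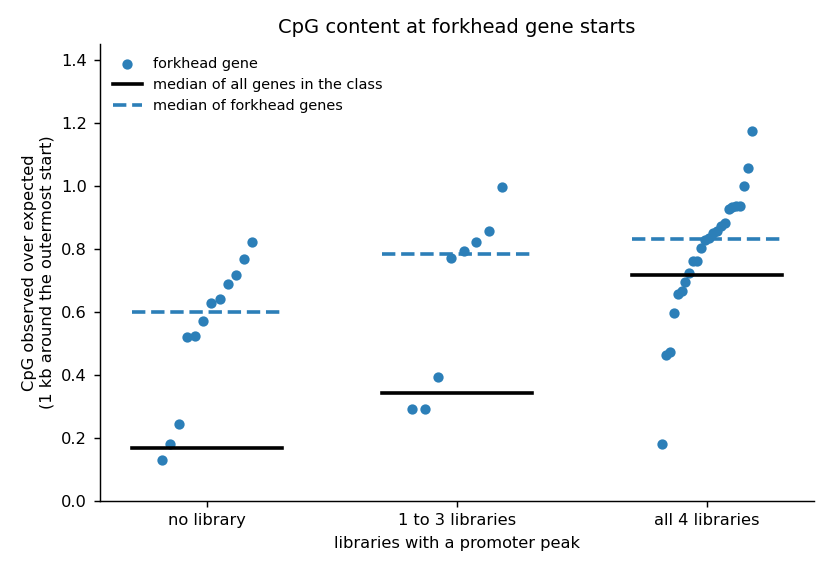
Observed over expected CpG in 1000 bp around the outermost start of each forkhead gene (vertical, no unit), by the number of libraries with a promoter peak. Each point is 1 gene, dashed lines are the medians of forkhead genes, and solid lines are the medians of all genes in the class. The forkhead median lies above the median of all genes in each class, at 0.599 against 0.167 for genes without a peak.

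To ask whether the height of open promoters differed by host genotype, log2 heights centred on each library's median were compared with limma over the 13675 promoters open in all 4 libraries. None of the 24 forkhead promoters tested passed an adjusted p of 0.05 by limma, and 0.0146% of all promoters (2, both higher in KO) did. At an unadjusted p under 0.05 there were 2 forkhead promoters, Foxf1 and Foxc1, against 3.82% of all promoters. On the log2 scale the KO minus WT value of Foxf1 was 1.42 (n = 2 per group, SE 0.36, limma adjusted p = 0.876), the highest of all promoters tested. Without Esm1 KO 2 it was 0.74 (limma adjusted p = 0.9996), so the size of the difference rests on Esm1 KO 2. Without Esm1 KO 1 it was 2.10 (limma adjusted p = 1.98e-06), but either fit leaves a lone KO tumor that is assumed to vary as the WT pair did. Without Esm1 KO 1 the number of promoters passed was 193 instead of 2. Taken as fold over local background it was 0.57 (limma adjusted p = 0.995). Foxf1 also passed the threshold with heights taken over genome background (1.31, limma adjusted p = 0.0199) and with a replicate block (1.42, limma adjusted p = 0.0475).

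The value of Foxc1 was 0.71 (SE 0.25, limma adjusted p = 0.998), and 0.34 as fold over local background. The lowest value of the family was that of Foxj2 at -0.25 (SE 0.13), followed by Foxm1 at -0.21 (SE 0.16). Foxb2 and Foxd1, both low promoters, had values of 0.50 (SE 0.30) and 0.45 (SE 0.32). The median over the 24 was 0.06, against -0.0048 over all promoters, with 17 values above 0 and 7 below. When heights were taken over genome background the split was 10 above and 14 below, as that scaling moved the median of all promoters to -0.11. With fold over local background it was 13 and 11, and without Esm1 KO 2 it was 10 and 14. Foxo3, Foxo1, Foxk1 and Foxn3 had values between -0.10 and 0.00, with SE of 0.10 to 0.14.

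**Figure D3:**
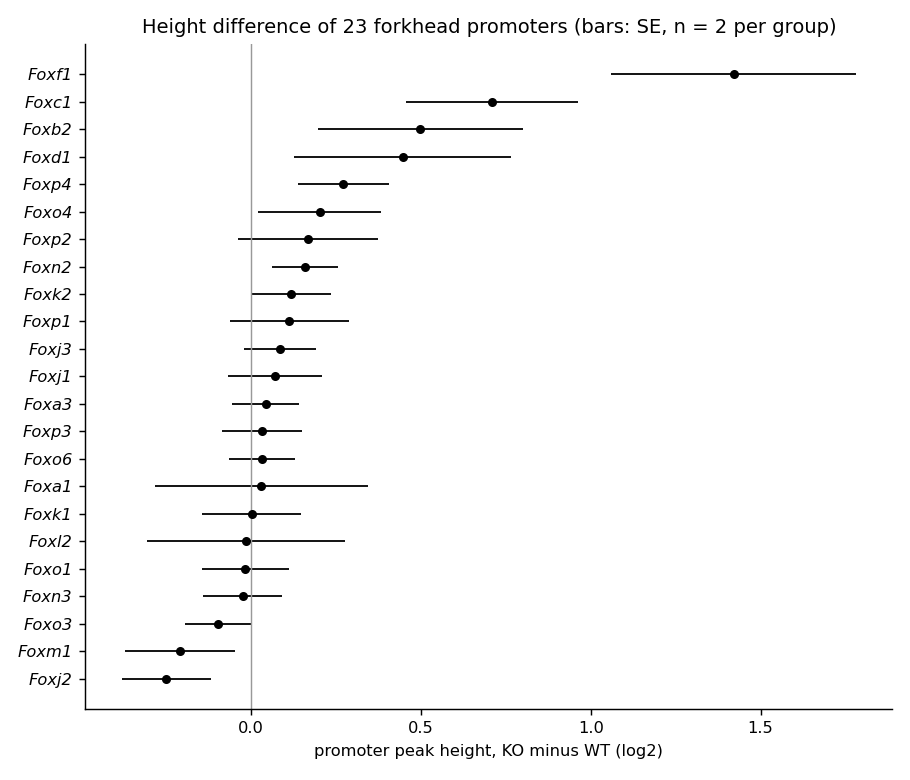
KO minus WT difference in the height of the tallest promoter peak (horizontal, log2) for 23 of the 24 forkhead genes with a promoter peak in all 4 libraries. Points are limma estimates with 2 tumors per group. Bars are limma's standard errors, which also draw on the variance of the other promoters tested. Foxf1 at 1.42 and Foxc1 at 0.71 lie farthest to the right, and Foxj2 at -0.25 lies farthest to the left.

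Distal peaks were peaks outside every promoter within 20 kb of a forkhead start. There were 61, 87, 73 and 82 of them, the same order of libraries as that of genome background. The means of 74.0 ± 18.4 in WT and 77.5 ± 6.36 in KO (SD, n = 2 per group) differed by 3.5 peaks (two-sided exact permutation p = 1). The sign turned with equal numbers of peaks (-4.5), within 10 kb (-1.0), without Esm1 WT 1 (-9.5) and without Esm1 KO 2 (-1.0). The peaks merged into 127 regions, of which 78 (61.4%) lay in introns, 32 (25.2%) between genes and 17 (13.4%) over exons, and 60 were inside an intron of a forkhead gene. At least 1 region was found for 35 members. The 9 without were Foxa3, Foxb1, Foxb2, Foxd1, Foxd2, Foxi3, Foxn2, Foxq1 and Foxr2, which include the tall promoters of Foxa3 and Foxn2.

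Foxp1 had the most distal peaks, 11, 19, 12 and 16, in 24 regions. Foxn3 had 8, 10, 9 and 10, Foxo3 had 3, 5, 4 and 4, and Foxk1 had 2, 5, 5 and 3. Foxp1 and Foxn3 are also among the longest members with the most starts, so more sequence lay within 20 kb of a start. Foxp2, with 16 starts over 475.3 kb, had just 0, 1, 1 and 2 distal peaks. The part of length and starts in these counts was not tested. In the other classes the member with the most was Foxc1 (2, 3, 4 and 3), Foxj3 (2, 4, 3 and 2), Foxf2 (2, 2, 1 and 2), Foxi1 (2, 2, 1 and 2), Foxl1 (2, 1, 2 and 2), Foxe1 (1, 2, 1 and 1), Foxs1 (1, 2, 1 and 1), Foxd4 (1 in each), Foxr1 (1 in each) and Foxm1 (0, 1, 2 and 1). Foxa1 had 1 in Esm1 KO 2 and Foxh1 had 1 in Esm1 WT 1. FOXB and FOXQ had none.

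**Figure D4:**
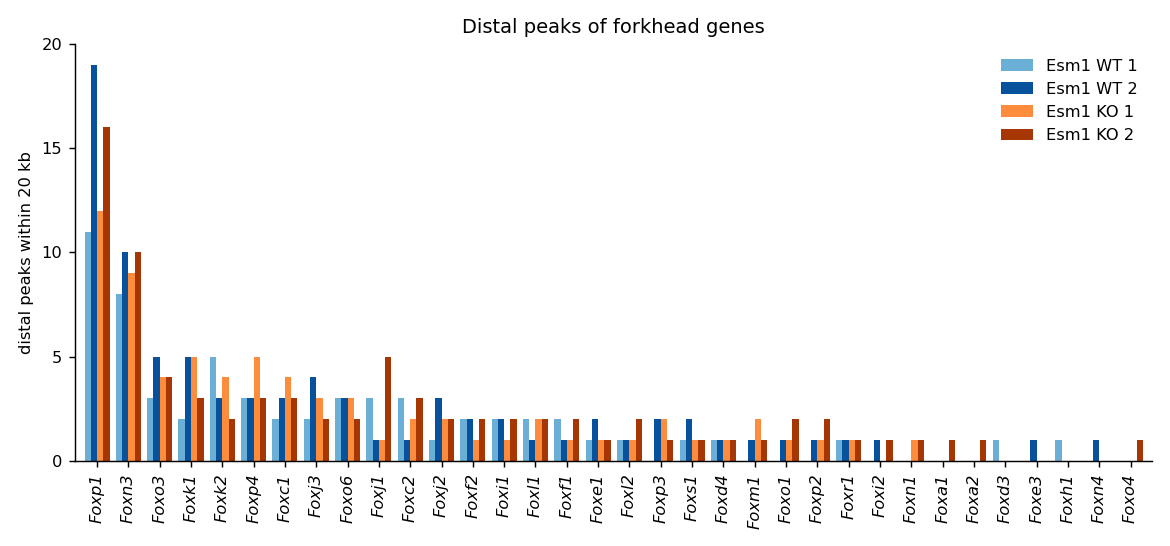
Number of distal peaks within 20 kb of a start (vertical) for 34 of the 35 forkhead genes with at least 1, with 1 bar per tumor. A peak within reach of 2 genes is counted at each. Foxp1 stands highest, with 11, 19, 12 and 16 peaks, and Foxj1 is split, with 3 and 5 in Esm1 WT 1 and Esm1 KO 2 against 1 in each of the other libraries.

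The tallest distal region was 7.79 kb from a start of Foxj2 (chromosome 6, 122810271 to 122812124, between genes), with 131, 140, 128 and 145 reads, above the Foxj2 promoter itself in every library. A region 15.8 kb from Foxr1, whose promoter was closed, had 81, 97, 79 and 88 reads (chromosome 9, 44456909 to 44458109), but its nearest start was that of Upk2 at 1933 bp. In an intron of Foxp4, 47873183 to 47873929 of chromosome 17 had 63, 82, 66 and 71.

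Of the 127 regions, 37 (29.1%) had a peak in all 4 libraries, against 32.5% of all 102592 distal regions. KO-only regions numbered 5 (3.94%), against 1.83%, and WT-only regions numbered 2 (1.57%), against 1.60%. The KO-only regions included an exon of Foxc1, 1.3 kb from its start (26 and 47 reads), and a region between genes near Foxp4 (29 and 39 reads). The others were in an intron of Slc13a2 near Foxn1 (27 and 28), in Foxn3 (22 and 49) and in Foxp1 (22 and 25). The WT-only regions lay in Foxp1 (16 and 21 reads) and over an exon of Foxp4 (24 and 33). Esm1 KO 2 alone held 14 of the regions, against 8.85% of all, and Esm1 WT 1 alone held 8 (6.30%), against 3.44%. Esm1 WT 2 alone held 16 (12.6%), against 16.1%, and Esm1 KO 1 alone held 7 (5.51%), against 3.91%. In the limma test of height none of the 37 regions open in all 4 libraries passed an adjusted p of 0.05 and none passed an unadjusted p of 0.05, while 0.0270% and 3.34% of 33338 distal regions did. The values ran from -0.51 (SE 0.27) in Foxn3 to 0.37 (SE 0.23) in Foxo6, both introns.

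The Foxj1 gene showed a split that did not follow genotype. Inside its intron, 2.53 kb from the start, 116332416 to 116332869 had 46 reads in Esm1 WT 1 and 73 in Esm1 KO 2 and no peak in the other libraries. Just past the gene, at 4.93 kb from the start, 116330160 to 116330464 had 31 and 51 reads in the same 2 libraries. Esm1 KO 2 alone had further peaks at 5.46 kb (47 reads) and at 7.1 kb on the other side (33 reads). As fold over local background, the intron peaks were at 3.41 in Esm1 WT 1 and 2.57 in Esm1 KO 2. Those just past the gene were at 3.14 and 2.37, and those of Esm1 KO 2 alone at 2.36 and 2.57. The promoter and a region 15.6 kb from the start (32, 37, 36 and 58 reads) were open in all 4. Regions shared by Esm1 WT 1 and Esm1 KO 2 alone made up 4 of the 127 (3.15%), against 1.10% of all distal regions, and the other 2 lay in an intron of Foxp1 and, between Foxf1 and Foxc2, in an intron of Mthfsd, 11.7 kb from the Foxc2 start and 1157 bp from that of Mthfsd. Ependymal cells and choroid plexus are the cell types in which Foxj1 is best known in brain. Their markers were open at 7, 6, 5 and 6 of 15 promoters. Otx2 was open in Esm1 WT 1 alone, Ccdc153 in Esm1 WT 2 alone and Aqp1 in Esm1 KO 2 alone. Ttr was open only in the WT libraries, and Cfap126 in all but Esm1 WT 2. None of these 15 markers was open in just Esm1 WT 1 and Esm1 KO 2, the split seen at Foxj1. Among the glial lineage markers given below, Sox10 was.

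On chromosome 8 Foxf1, Foxc2 and Foxl1 lie within 46.3 kb on the same strand. A region 2.41 kb from the Foxc2 start, within reach of Foxc2 and Foxl1, was open in all 4 libraries (121113285 to 121113760, with 32, 47, 51 and 54 reads). An exon of Mthfsd 8.05 kb from Foxf1 was as well (26, 35, 36 and 48 reads). The region in Mthfsd within reach of Foxf1 and Foxc2 was open in Esm1 WT 1 and Esm1 KO 2 (25 and 40 reads). In this cluster Esm1 KO 2 thus had the tallest Foxf1 promoter and the sole Foxc2 promoter peaks. In reads it was also highest in these 3 distal regions, but over genome background the region near Foxc2 was at 7.25, 6.86, 8.46 and 8.05, highest in Esm1 KO 1. Fold over local background was 4.84, 4.90, 5.44 and 3.43 in that region and 4.22, 3.79, 3.87 and 3.45 in the exon. In the region open in Esm1 WT 1 and Esm1 KO 2 it was 2.77 and 2.27, so Esm1 KO 2 was lowest in each. A further region 2.21 kb from Foxl1 had 20, 19 and 29 reads in Esm1 WT 1, Esm1 KO 1 and Esm1 KO 2. These were 4.53, 3.15 and 4.32 times genome background, with folds of 3.88, 2.85 and 3.89. Foxl1, a gene of intestinal mesenchyme, had no promoter peak.

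**Figure D5:**
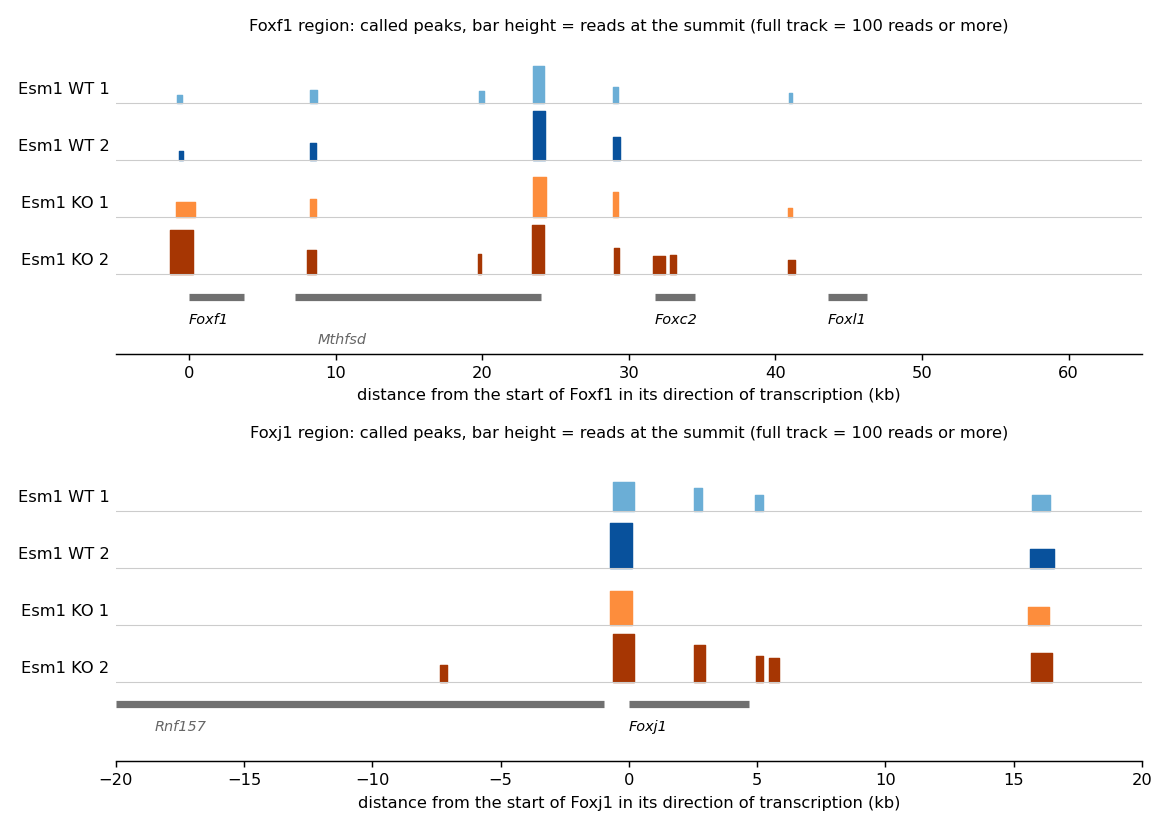
Called peaks around Foxf1, Foxc2 and Foxl1 (top) and around Foxj1 (bottom) by distance from the start of Foxf1 or Foxj1 (kb). Each track is 1 tumor, a bar's width is the peak's width and its height the reads at the summit, with a full track at 100 or more. Grey bars are genes, with Gm20388, which spans the whole top panel, left out. Esm1 KO 2 has the tall Foxf1 promoter peak of 89 reads, and Esm1 WT 1 and Esm1 KO 2 share 2 peaks downstream of the Foxj1 start.

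Matches to the forkhead motifs were counted in the regions of the forkhead genes themselves. TGTTTAC or TGTTTGC on either strand occurred within the 200 bp around the summit in 5 of the 127 distal regions (3.94%), against 6.81% of all distal regions. It occurred in 3 of 32 promoter peaks (9.38%), against 2.65%. The SOX site ACAAAG was in 22 distal regions (17.3% against 15.6%), the AP-1 site TGANTCA in 19 (15.0% against 13.4%), the E-box CATATG in 3 (2.36% against 6.53%) and the FOXH1 site AATCCACA in none (0.85% of all distal regions). In the 32 promoter peaks the SOX, AP-1 and E-box letters were found in 0, against 6.77%, 3.13% and 0.88% of all promoter peaks, and the FOXH1 letters in 1, against 0.19%. Of the regions with a forkhead match, that of Foxn3 was missing in Esm1 KO 2, those of Foxj1 and of 1 Foxp1 intron were open in Esm1 WT 1 and Esm1 KO 2, and that of the other Foxp1 intron was open in Esm1 WT 2 and Esm1 KO 2. For these 4 the 200 bp around the summit are given from the GRCm38 assembly, with the match in capitals:
Foxj1, chr11:116330191-116330390, plus strand: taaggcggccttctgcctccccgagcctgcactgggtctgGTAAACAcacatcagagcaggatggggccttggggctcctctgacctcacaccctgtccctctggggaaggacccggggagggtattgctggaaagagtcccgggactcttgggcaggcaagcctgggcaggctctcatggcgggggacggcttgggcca
Foxn3, chr12:99378384-99378583, plus strand: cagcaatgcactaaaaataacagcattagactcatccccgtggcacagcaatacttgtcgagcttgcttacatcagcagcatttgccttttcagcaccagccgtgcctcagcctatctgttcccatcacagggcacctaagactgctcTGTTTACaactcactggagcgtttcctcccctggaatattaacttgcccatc
Foxp1, chr6:99270039-99270238, plus strand: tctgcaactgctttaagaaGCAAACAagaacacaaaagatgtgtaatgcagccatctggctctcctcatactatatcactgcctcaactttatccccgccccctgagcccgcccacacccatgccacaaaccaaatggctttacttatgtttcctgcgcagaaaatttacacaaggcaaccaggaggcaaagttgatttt
Foxp1, chr6:99440046-99440245, plus strand: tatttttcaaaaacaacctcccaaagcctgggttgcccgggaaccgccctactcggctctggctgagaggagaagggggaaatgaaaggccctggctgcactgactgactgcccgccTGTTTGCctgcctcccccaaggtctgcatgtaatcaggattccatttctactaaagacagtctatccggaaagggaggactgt

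Among the promoters, the Foxo4 peak held such a match in the 100 bp around its highest summit, again in capitals:
Foxo4, chrX:101254160-101254259, plus strand: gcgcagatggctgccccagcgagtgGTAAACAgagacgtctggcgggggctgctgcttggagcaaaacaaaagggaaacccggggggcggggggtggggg

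The lists of pathway genes are to be read against the 63.9% to 66.9% of all genes that were open in a library. All 25 promoters of the FOXO pathway, from the insulin receptor Insr to Akt1 and the acetyltransferase Ep300, had a peak in every library. All 22 targets of FOXM1, such as Ccnb1, Plk1 and Aurkb, did too. Of 24 FOXO targets 19, 19, 19 and 20 were open. Tnfsf10 was open in Esm1 KO 2 alone and Fasl, G6pc, Pck1 and Trim63 were closed. For the Nodal and FOXH1 pathway 13, 15, 14 and 14 of 20 promoters were open, near the share of all genes, and Nodal, its co-receptor Tdgf1 and the target Mixl1 were closed.

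In the ciliary programme of FOXJ1 17, 17, 19 and 18 of 22 promoters were open. Rfx4 was open in both KO and neither WT library, Mcidas in all but Esm1 KO 2, Hydin in all but Esm1 WT 1 and Cfap126 in all but Esm1 WT 2. The axonemal genes Dnah5, Spag17 and Tekt2 were closed. Around the floor plate 11, 9, 9 and 11 of 15 were open, with Nkx2-2 in both KO and neither WT library, Lmx1a and Nkx6-2 in Esm1 WT 1 alone and Lmx1b in Esm1 KO 2 alone. Glial lineage markers were open at 14, 13, 14 and 15 of 15 promoters. Sox10 was open in just Esm1 WT 1 and Esm1 KO 2, and Nkx2-2 in both KO and neither WT library. Neuronal markers were open at 15, 14, 14 and 14 of 15, and microglial markers at 1, 3, 3 and 3 of 15, with Csf1r, Cx3cr1 and P2ry12 closed in every library. The part of these cell types in the forkhead results was not tested.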

How the data were processed

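ATAC-seq was analysed in 4 mG7080 tumors, 2 from Esm1 WT and 2 from Esm1 KO mice, grouped by their titles. The authors deposited 1 peak list per tumor. MACS2, HOMER and mm10 are named in the submitters' processing notes, while the study's methods describe Bowtie2 and Genrich. The lists follow the MACS2 layout and arithmetic. The sources used here do not give a transposase shift of the reads. The deposited columns hold, per peak, the fold (ratio) of summit height over local background, the −log10 p-value, the −log10 q-value and a score. The score was not used.

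Read counts are not in the lists. Heights were recovered from the deposited fold and −log10 p-value, and all 331481 matched within 0.001. Forkhead genes, starts and exons were taken from GENCODE M21. Peaks sharing at least 1 bp were merged, and a region was distal when none of its peaks touched a protein-coding promoter. Log2 heights were compared with limma 3.58.1 (R 4.3.3), after subtraction of the library median, with limma's trend option and Benjamini-Hochberg adjustment. Counts were compared by two-sided exact permutation over libraries. Only features with a peak in all 4 libraries entered limma, which therefore does not see loss of a peak. On simulated promoter heights limma was tested with seeded changes, and the height recovery was tested on simulated peaks. Permutation p-values rest on the spread between these tumors, 1 library each. Limma's p-values and SE also draw on the variance of all features tested, pulled toward the level typical of the feature's height. They do not measure the spread of a gene's own tumors alone.

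Members in full were those open in some libraries, those with the highest or lowest height difference, and those with the most distal peaks. Foxj1 and other members given with values were chosen after these were seen. Members, lists and tests were chosen with earlier results of these data known. The values of 1 member and 1 pathway list are not reported here, though counts over the family include that member. Sequences were read from the GRCm38.p6 assembly, whose chromosomes held all peaks. They are 100 bp, or 200 bp for distal regions with a forkhead match. Alternatives changed the q minimum, peak number, starts, windows, scaling and libraries.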

Additional observations from a re-analysis of the deposited data

How the results depend on the processing

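Of 141 values recomputed under another setting, 106 were the same by rules that depended on the kind of value. A count had to stay within 1.5 times of its value, and a 0 had to stay 0. A difference in numbers between KO and WT had to keep its sign. The height difference of a named gene had to keep its sign and its side of the adjusted p threshold. A replicate block, with numbers as titled or crossed, leaves that difference unchanged by construction. The 106 thus include values whose sign could not have changed. The difference of 4.5 in members with a promoter peak stayed above 0 in all of its 10 settings and ranged from 2.5 to 6.5 when 1 library was left out. It was 7.0 when a −log10 q of 5 was required and 6.0 with peak numbers made equal. Over all genes the same difference was 168 at that q and 106 with equal peak numbers. It was -39 without Esm1 WT 1, 471 without Esm1 WT 2, 424 without Esm1 KO 1 and 8 without Esm1 KO 2. The number of members open in all 4 libraries (24) and open in both WT and neither KO library (0) stayed within 1.5 times of its value in all 10 settings.

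Members open in both KO and neither WT library numbered 4 at the stricter q and 3 with peak numbers made equal, each beside 0.278% of all genes. There were 0 with promoters of 500 or 2500 bp or when the summit had to lie in the window. Leaving out 1 library gave 1 to 5. The counts of 4 without Esm1 WT 2 and 5 without Esm1 KO 1 stand beside 1.60% and 1.93% of all genes. The distal difference of 3.5 peaks was 0.5 at the stricter q, reversed to -4.5 with equal peak numbers and to -1.0 within 10 kb, and ranged from -9.5 without Esm1 WT 1 to 15.5 without Esm1 WT 2. It was 2.0 with each peak judged alone, a setting chosen after seeing the data. WT-only distal regions (2) numbered 0 at the stricter q, 1 with equal peak numbers, with starts of coding transcripts and within 10 kb, and 5 within 50 kb. KO-only distal regions (5) numbered 1 at the stricter q and within 10 kb, 2 with equal peak numbers and 8 within 50 kb. Without 1 library they ranged from 6 to 18 (WT-only) and from 6 to 19 (KO-only), because fewer libraries then define the pattern. The shares of all distal regions were not computed in these settings, so the counts cannot be set against them. Except where the construction shows it, the cause was not tested.

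Forkhead promoters past the limma threshold numbered 1, Foxf1, with heights over genome background (1.31) and with the replicate block (1.42), and 0 to 1 when 1 library was left out. The replicate block changed no other forkhead call, with 10 promoters called in all against 2 without it, and heights over genome background also called 10. The count over all promoters was 193 without Esm1 KO 1 (Foxf1 at 2.10), 9 without Esm1 KO 2, 3 when the summit had to lie in the window, 1 with quantile normalization and without Esm1 WT 1, and 0 with fold over local background. Over distal regions 9 were called, against 98 without Esm1 KO 1, 5 without Esm1 WT 2 and 2 with fold over local background. The titles tie no WT tumor to a KO tumor of the same number, so the numbers were not treated as pairs. Deviations of same-numbered tumors from their group means correlated at -0.21 for promoters and -0.29 for distal regions. With 2 libraries per group, crossing the numbers only changes the sign of these values, so they cannot test pairing. The crossed pairing, chosen after seeing the data, called 1 forkhead promoter (Foxf1, 1.42) of 30 promoters and 0 forkhead regions of 72 distal regions. No setting called a forkhead distal region.

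Depth limits the absence of a peak most in Esm1 WT 1, since Esm1 WT 2 had 1.55 times its genome background. Heights compare called peaks only.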
